A study of Homo sapiens with 2 samples.

Results

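The transcript models described here were stretches of RNA assembled as a single exon, far from any annotated gene. A model was taken when it lay on chromosomes 1 to 22, was built by the assembler rather than copied from RefSeq, had exactly 1 exon, was 300 bases or longer and had a deposited value above 0. It also had to lie more than 5000 bases from the span of every RefSeq transcript on either strand. By this rule 3255 models were found in the library labelled USP49 knockdown and 2812 in the control library. They were 6067 of the 84722 models of value above 0, of which 43071 belonged to the library labelled USP49 knockdown and 41651 to control. They are called unspliced intergenic models below. The models were chosen by their assembled position, length, exon number and deposited value, so their number, length, level and distance from genes are descriptions.

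Poly(A) RNA came from HCT116 cells, an established line from a human colorectal carcinoma, with a tetracycline-inducible construct directed at USP49. One library was labelled USP49 knockdown and one was labelled control. A time of 36 h after doxycycline was listed for both, but whether the control cells of the RNA experiment had received doxycycline was not stated. The library protocol described no step that marks the strand, and 3242 of the 3255 models of the library labelled USP49 knockdown and 2795 of the 2812 control models carried no strand.

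USP49 is a deubiquitinase that removes ubiquitin from histone H2B and has been tied to the splicing of nascent RNA. Most of a mammalian genome can be transcribed at low levels outside its annotated genes. Unspliced RNA from such places can come from transcription that runs on past the 3′ end of a gene, from enhancers, from long noncoding RNA genes, or from copies of messenger RNAs inserted back into the genome without introns, known as processed pseudogenes. The files do not say which of these a model is, and nothing below assigns one. In bulk RNA, fewer cells making an RNA and less of it per cell cannot be told apart.

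The deposited values were turned into fragment numbers, which summed to 19964370 in the library labelled USP49 knockdown and 16381154 in control, a ratio of 1.22. There was 1 library per group, so replicates check no difference here and no p-value was computed. Intervals are 95% and cover counting error only. On the exons of USP49 there were 69 fragments in the library labelled USP49 knockdown and 46.5 in control, a density of 1.09 against 0.894. Density here is the FPM, or fragments per 1000000 fragments of the library, divided by the length in kb. The exons thus showed no loss of the targeted gene, and the label is used as given. Epithelial EPCAM stood at a density of 144 in the library labelled USP49 knockdown and 151 in control, and KRT19 at 286 and 319. CDH1, KRT8 and KRT18 stood at 8.72, 42.2 and 44.3 in the library labelled USP49 knockdown and at 8.58, 47.8 and 50.6 in control. VIL1 and CDX1, which mark gut epithelium, were at 0 in both, and LGALS4 had 0 fragments in the library labelled USP49 knockdown and 2 in control. The blood marker PTPRC, the fibroblast markers COL1A2 and DCN, and the endothelial marker CDH5 were at 0 in both, while COL1A1, also of fibroblasts, had a density of 6.50 in the library labelled USP49 knockdown and 6.83 in control. The endothelial marker PECAM1 had 5 fragments in the library labelled USP49 knockdown and 4 in control, and the blood marker CD3E had 1 and 0.

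The unspliced intergenic models were short and thinly covered. Their median length was 989 bases in the library labelled USP49 knockdown and 968 bases in control, and the longest reached 21914 and 27903 bases. Each was built from few fragments, with a median of 20 in the library labelled USP49 knockdown and 19 in control, and 52.1% and 53.3% of the models had 20 or fewer. At the other end, 129 models of the library labelled USP49 knockdown and 99 of control had 200 or more fragments. Median density was 0.981 in the library labelled USP49 knockdown and 1.22 in control, with quartiles at 0.719 and 1.65 and at 0.877 and 1.93. The median number of fragments per model was thus nearly the same in libraries whose depths differed 1.22-fold, and the part of depth in the lower median density was not tested. RefSeq models with 10 or more fragments had a median density of 7.98 in the library labelled USP49 knockdown and 8.08 in control. Of the unspliced intergenic models, 94.2% and 92.7% lay below those medians.

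Summed over all its unspliced intergenic models, the library labelled USP49 knockdown had 150574 fragments, 0.754% of its total, and control had 122971, 0.751% of its total. The class as a whole therefore held almost the same share of both libraries, although the number of models was 1.16-fold higher in the library labelled USP49 knockdown. Of like models, unspliced ones within 5000 bases of a RefSeq span numbered 3205 in the library labelled USP49 knockdown and 2909 in control, with median densities of 1.08 and 1.32. Those inside RefSeq spans numbered 6867 and 6485, with median densities of 1.47 and 1.70. Spliced assembled models more than 5000 bases from RefSeq spans numbered only 257 and 239.

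The distance limit of the rule did not mark a step in level. Models 5 to 6 kb from a gene, 263 in the library labelled USP49 knockdown and 257 in control, had median densities of 1.00 and 1.23. The 362 and 294 models just inside the excluded zone, 4 to 5 kb from a gene, had 1.04 and 1.30. Short models were denser on both sides of the length limit, and more so below it. The models from 300 to just under 400 bases had median densities of 3.10 in the library labelled USP49 knockdown and 4.58 in control, and those from 200 to just under 300 bases, which the rule left out, had 4.64 and 6.14.

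Overlapping models of both libraries were joined into 3729 regions. Of these, 1692 held models of both libraries, 1251 only models of the library labelled USP49 knockdown and 786 only control models. Regions crowded behind the 3′ ends of genes. Available sequence was that between RefSeq spans and more than 5000 bases from them. Per Mb of it, there were 17.5 regions at 5 to 10 kb beyond the 3′ end of the nearest RefSeq gene and 6.03 at the same distance beyond a 5′ end. At 10 to 20 kb the numbers were 7.99 beyond 3′ ends and 3.51 beyond 5′ ends, and at 20 to 50 kb 3.61 and 2.39. More than 100 kb away they came to 0.709 and 0.789, so the lead of the 3′ side was no longer seen. The side is that of the gene, since the models had no strand of their own.

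The crowding was seen next to expressed genes. Beyond the 3′ end at 5 to 10 kb there were 36.4 regions per Mb next to genes with a density of 10 or more, and 29.5 next to genes of 1 to 10. Next to genes under 1 there were 3.57. Beyond 5′ ends at that distance the numbers were 8.94, 10.9 and 2.32 in the same order of gene level. Taking each library alone, 64.1% of the 2943 regions with a model in the library labelled USP49 knockdown lay on the 3′ side of their nearest gene, and 63.3% of the 2478 with a control model. Up to 20 kb beyond a 3′ end lay 37.1% of the regions of the library labelled USP49 knockdown and 38.5% of those of control. More than 50 kb from any gene lay 26.2% and 24.5%. Unlike the numbers per Mb, these shares take no account of how much sequence was available. At 5 to 10 kb that was 48.5 Mb beyond 3′ ends and 54.2 Mb beyond 5′ ends. At more than 100 kb it was 419 and 329 Mb.

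**Figure D1:**
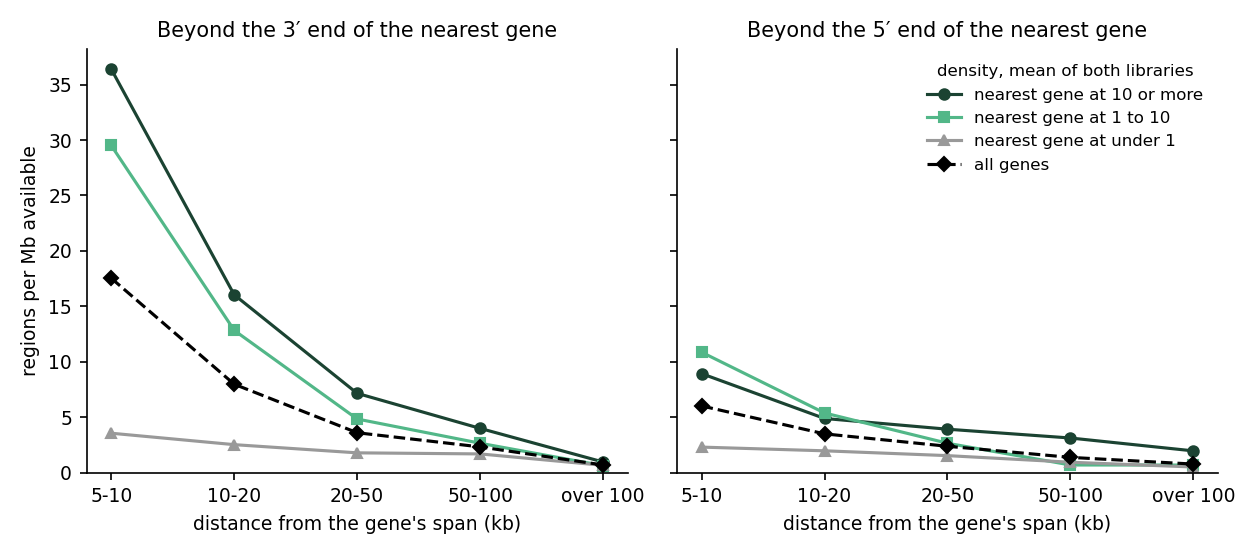
Regions per Mb of available sequence against distance from the nearest RefSeq gene in kb, beyond its 3′ end (left) and its 5′ end (right), for regions of both libraries together. Lines and symbols separate genes by density, and the dashed line is all genes. At 5 to 10 kb beyond 3′ ends the values are 36.4, 29.5 and 3.57 from the highest to the lowest gene level, and beyond 5′ ends all lie at 10.9 or lower.

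Fragments of the member models were summed in each distance class. These sums, like the numbers of regions, depend on which models met the rule in each library. At 5 to 10 kb beyond 3′ ends the models held 1501 FPM in the library labelled USP49 knockdown and 1506 in control. At 10 to 20 kb they held 795 and 783, and more than 100 kb beyond 3′ ends 596 and 594. A larger gap was seen 50 to 100 kb beyond 5′ ends, with 484 in the library labelled USP49 knockdown and 381 in control. In that class 1 region, between ANKRD10 and ARHGEF7, held 107 FPM in the library labelled USP49 knockdown and 10.3 in control. Over all models that region held 107 and 94.3 FPM. At 5 to 10 kb beyond 5′ ends the models held 531 in the library labelled USP49 knockdown and 624 in control, and 1 region upstream of MIR31HG made up 7.61 and 33.8 of that. Over all models it held 29.2 FPM in the library labelled USP49 knockdown and 33.8 in control. By chromosome, regions were thickest on chromosomes 22, 17 and 19, with 6.60, 6.18 and 5.13 per Mb of available sequence. They were thinnest on chromosomes 13 and 18, with 1.04 and 1.06. These numbers were not adjusted for how near to genes the available sequence of each chromosome lies.

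Models lay in runs. Joining models of both libraries across gaps of up to 10 kb gave 1732 domains, of which 559 held a single model. The 112 domains of 10 or more models contained 1811 models, and these carried 26.0% of the member fragments in the library labelled USP49 knockdown and 26.6% in control.

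The domain with the most models lay between RGS2, which encodes a regulator of G protein signalling, and UCHL5, which encodes a deubiquitinase of the proteasome. It ran over 114044 bases of chromosome 1, from 191128338 to 191242381 (hg18), starting 80308 bases from RGS2 and ending 5738 bases from UCHL5. The library labelled USP49 knockdown had 34 models there with 2090.5 fragments, and control had 36 models with 1833. The ratio of the library labelled USP49 knockdown to control in FPM was 0.936 (0.879 to 0.997). Models covered 63.7% of the domain in the library labelled USP49 knockdown and 67.3% in control, and 31 of the 34 and 30 of the 36 were matched in the other library. The densest model lay at nearly the same place in both libraries, at 3.88 in the library labelled USP49 knockdown and 3.73 in control, over medians of 1.01 and 0.982. Current RefSeq names 3 long noncoding RNAs, RGS2-AS1 among them, and 2 pseudogenes between these landmarks, as a matter of gene order only.

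**Figure D2:**
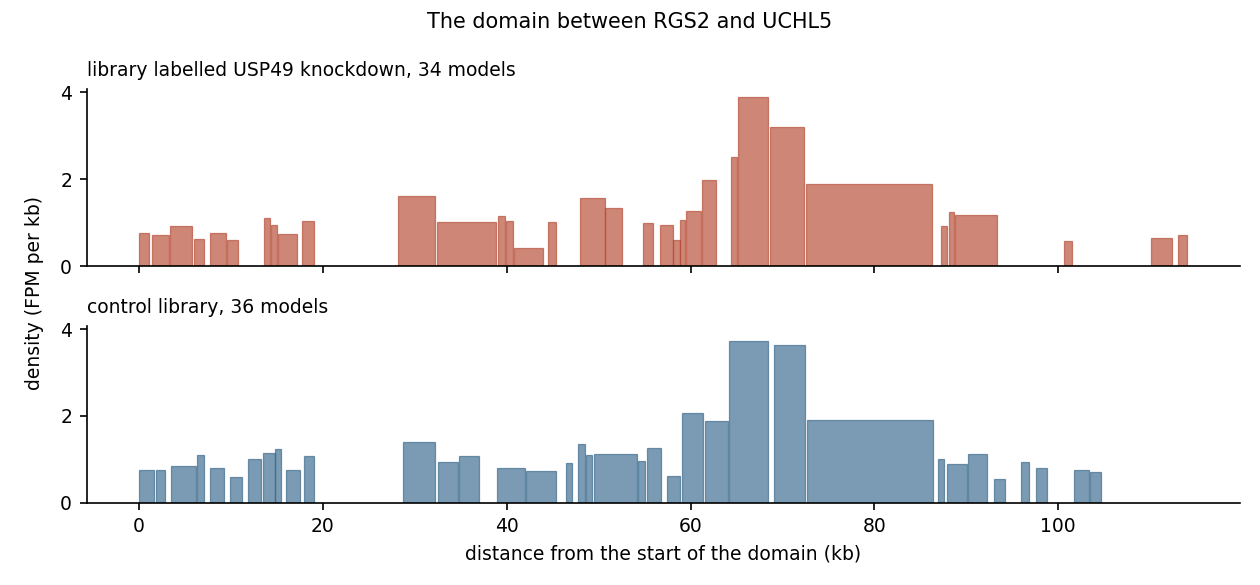
Density (FPM per kb) of each unspliced intergenic model in the domain between RGS2 and UCHL5, against distance from the start of the domain in kb. The 34 models of the library labelled USP49 knockdown are above and the 36 of control below, and the width of a bar is the length of the model. The tallest bars, 3.88 in the library labelled USP49 knockdown and 3.73 in control, stand at about the same distance.

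The next domain by number of models lay on chromosome 2 at 224181572 to 224242448, between SCG2, which encodes the granule protein secretogranin II, and AP1S3, which encodes a subunit of the AP-1 adaptor complex. It held 24 models with 846 fragments in the library labelled USP49 knockdown and 19 models with 758 in control, a ratio of 0.916 (0.829 to 1.01). The domain after it lay on chromosome 9 at 2741155 to 2789105, between KCNV2, a potassium channel subunit, and PUM3, an RNA-binding protein. Both libraries had 19 models there, with 867 fragments in the library labelled USP49 knockdown and 712 in control, a ratio of 0.999 (0.904 to 1.10). None of these 3 domains differed by more than 10% between the libraries, although their models were cut differently.

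A model of one library was often absent from the other. In the library labelled USP49 knockdown 2003 of 3255 models overlapped an unspliced intergenic model of control by 1 base or more, 61.5% (Wilson interval 59.9% to 63.2%). In control 2021 of 2812 did so, 71.9% (70.2% to 73.5%). Another 314 models of the library labelled USP49 knockdown and 291 of control overlapped only a model that did not meet the rule, most often a spliced one, in 187 and 169 cases. No model at all was found in the other library for 938 (28.8%) of the library labelled USP49 knockdown and 500 (17.8%) of control. Those without a counterpart were the weak ones, with a median of 13 fragments in the library labelled USP49 knockdown and 12 in control, against 28 and 23 for the matched.

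Matching depended on the number of fragments. Among models with up to 10 fragments, 28.4% of the library labelled USP49 knockdown and 43.8% of control were matched. Between 20 and 50 fragments the shares were 76.4% and 81.7%. Above 200 fragments they were 94.5% and 92.9%, and 99.2% and 100% of those strong models overlapped some model of the other library. At each step up to 200 fragments the matched share was lower for the library labelled USP49 knockdown, with 91.8% against 93.3% in control from 100 to 200. Above 200 it was higher. Models of the library labelled USP49 knockdown were looked for in the shallower control library, and the part of depth in this was not tested.

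**Figure D3:**
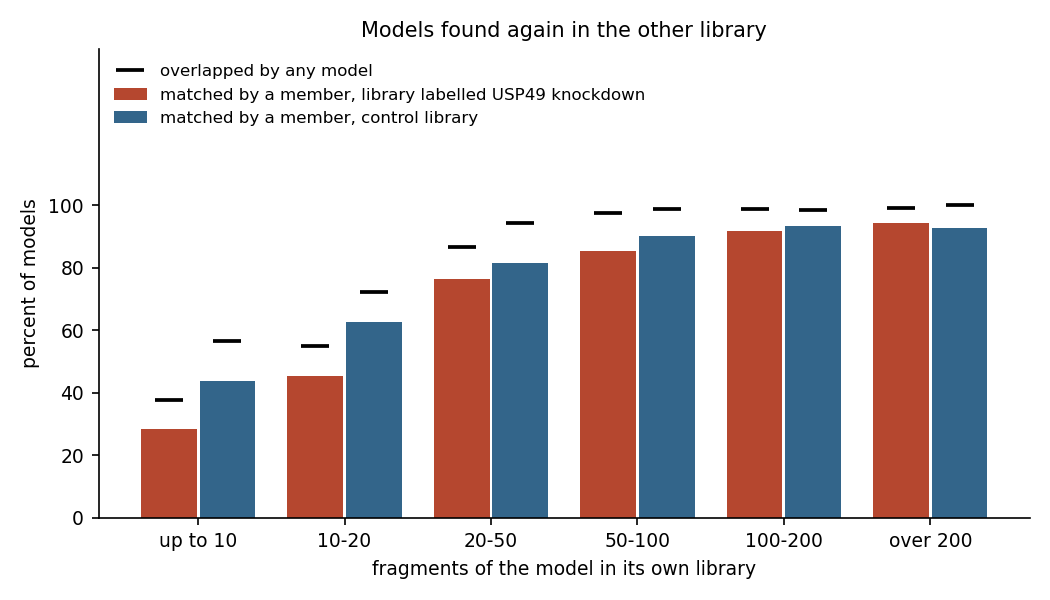
Percent of unspliced intergenic models found again in the other library, by the number of fragments of the model. Bars are models overlapped by a model that meets the same rule, with the library labelled USP49 knockdown left of control, and black marks are models overlapped by any model. The bars climb to 94.5% and 92.9% above 200 fragments.

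Only 3 of the 938 models of the library labelled USP49 knockdown without any counterpart had 100 or more fragments, and 2 of the 500 in control. The strongest lay on chromosome 1 at 227867782 to 227872513, 5213 bases beyond the 3′ end of URB2, a nucleolar protein gene. It had 217 fragments in the library labelled USP49 knockdown and no model in control. The next lay 8706 bases beyond the 3′ end of CSNK2A1, the catalytic subunit of casein kinase 2, with 142 fragments. A model 25271 bases beyond the 5′ end of ASIP, which encodes the agouti signalling protein, had 113, and one 11655 bases beyond the 3′ end of ATOX1, a copper chaperone gene, had 70. On the control side the strongest lay 6042 bases beyond the 5′ end of the plexin gene PLXNB2, with 127 fragments and no model in the library labelled USP49 knockdown. It was followed by one 7127 bases beyond the 3′ end of MRPL3, a mitochondrial ribosomal protein gene, with 120. A model 5678 bases beyond the 3′ end of CPOX, a heme synthesis gene, had 98, and one 6730 bases beyond the 5′ end of MSMP had 96. Fragments below the minimum of the assembly are not in the files, so no fold is given for these models.

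Many strong models had the same ends in both libraries. Where 1 model of each library paired with a mean of 100 or more fragments, both ends lay within 10 bases of each other in 67 of 180 intergenic pairs (37.2%). The share was 18.2% of 165 pairs within 5000 bases of a gene and 10.0% of 400 pairs inside genes. These 67 sharp-ended pairs were short and dense. Their median length was 637 bases in the library labelled USP49 knockdown and 630 in control, at median densities of 14.4 and 16.7. The other 113 pairs had median lengths of 1385 and 1113 bases and median densities of 8.46 and 8.87. Sharp-ended pairs within 5000 bases of a gene numbered 30, with median densities of 7.95 in the library labelled USP49 knockdown and 9.19 in control. The 40 inside genes had 12.3 and 13.1. Their median lengths were 1115.5 and 1120.5 bases within 5000 bases of a gene, and 1418 and 1417 inside genes. The 67 sharp-ended intergenic pairs had a median log2 ratio of -0.15 and a range of -0.45 to 0.59, and none was past 2-fold. Of the 113 other intergenic pairs 6 were past 2-fold, and their log2 ratios ran from -2.65 to 3.48. Sharp-ended pairs within 5000 bases of a gene ran from -0.51 to 0.25, and those inside genes from -0.43 to 0.66. The split was made on agreement of ends between the libraries, which is not independent of the ratio. The cause of the unlike ranges was not tested.

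The densest regions were all short. The 12 regions of highest mean density, listed after their values were seen, spanned 343 to 1004 bases. The densest of all was a region of 436 bases on chromosome 11 at 107284322 to 107284757, between SLC35F2 and RAB39A. It had 1025 fragments in the library labelled USP49 knockdown and 881 in control, densities of 120 and 123, and a ratio of 0.955 (0.872 to 1.05). Next came a region on chromosome 6 at 153645082 to 153645589, between RGS17 and OPRM1, with 700 fragments in the library labelled USP49 knockdown and 608 in control. Both landmarks could be found in the current RefSeq annotation for 11 of the 12 regions, and in all 11 at least 1 pseudogene is annotated between them. The same count was not made over all regions, so the 11 have no background share beside them. Landmarks can lie far from a region, at 151000 and 727735 bases for the region between RGS17 and OPRM1. Among less dense regions named below whose landmarks could be found, most also have pseudogenes between them, as between ZPLD1 and ALCAM. Others have none, as downstream of CEP78. Between SLC35F2 and RAB39A it is RPLP2P3, a pseudogene of a ribosomal protein gene, and between ATL2 and HNRNPLL it is RPLP0P6, another. Between CDS2 and PROKR2 it is UBE2D3P1, a pseudogene of a ubiquitin-conjugating enzyme gene. That annotation is on another genome build, so only the order of genes was read from it, and whether a region lies on a named pseudogene was not tested.

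The region with the most fragments covered 27903 bases of chromosome 3, from 105535760 to 105563662. It lay 1004585 bases from ALCAM, a cell adhesion gene, and 1854385 bases from ZPLD1. The library labelled USP49 knockdown had 2565 fragments there in 4 models and control had 1979 in a single model, the longest of either library, while the longest of the 4 had 14294 bases. The ratio was 1.06 (1.00 to 1.13), and the densities were 4.70 and 4.33. The nearest gene was well expressed in both, ALCAM having a density of 33.7 in the library labelled USP49 knockdown and 32.3 in control.

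Other strong regions were as even between the libraries. Between the bone matrix genes MEPE and SPP1, at 89031994 to 89034121 on chromosome 4, the library labelled USP49 knockdown had 1111 fragments and control 870, a ratio of 1.05 (0.958 to 1.15). MEPE was at a density of 0 in both libraries, and current RefSeq names HSP90AB3P, a pseudogene of a heat shock protein gene, between these landmarks. Between UTRN, the utrophin gene, and EPM2A, a glycogen phosphatase gene, a region of 3292 bases on chromosome 6 at 145286840 to 145290131 had 1041 fragments in the library labelled USP49 knockdown and 925 in control. Its ratio was 0.923 (0.844 to 1.01), its model lengths of 3291 and 3292 bases differed by 1 base, and it lay 70977 bases beyond the 3′ end of UTRN. Downstream of CEP78, a centriole gene, a region at 80078395 to 80083537 on chromosome 9 had 833 fragments in the library labelled USP49 knockdown and 656 in control, a ratio of 1.04 (0.939 to 1.16).

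Of the 8 strongest regions, 2 had ratios far from 1, and in both the other library carried its fragments on models outside the rule. At 110418571 to 110440484 on chromosome 13, 53154 bases beyond the 5′ end of ANKRD10, the library labelled USP49 knockdown had 1 model of 21914 bases with 2142 fragments. Control had 1 model of 7491 bases with 169, a ratio of 10.4 (8.89 to 12.2). With all models over the region counted, the library labelled USP49 knockdown kept 2142 fragments and control had 1544, a ratio of 1.14 (1.07 to 1.22). On the shared bases the log2 ratio was 1.83. At 104687144 to 104694483 on chromosome 4, beyond the 3′ end of TACR3, a neurokinin receptor gene near 0 in both libraries, the models had 799 fragments in the library labelled USP49 knockdown and 1446 in control. That ratio of 0.453 (0.415 to 0.495) became 0.953 (0.888 to 1.02) with 1679 and 1446 fragments of all models. On the shared bases the log2 ratio was -1.22. The long noncoding RNA LINC02428 and the pseudogene DDX3P3 are currently annotated between CENPE and TACR3.

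Ratios were taken for the 1188 regions with models of both libraries and a mean of 20 or more fragments. The median log2 ratio was -0.05, with 525 regions higher and 663 lower in the library labelled USP49 knockdown, and the central 95% of regions ran from -1.31 to 1.42. By a rule of size alone, 73 regions were 2-fold or more higher (6.14%) and 46 were 2-fold or more lower (3.87%). Over all unspliced assembled regions, 7.85% of 4573 were 2-fold higher and 6.8% were 2-fold lower. Unspliced regions within 5000 bases of a gene had 5.35% in either direction, and those inside genes 10.2% and 9.25%. RefSeq models alone in their locus, whose bounds are the same in both libraries, had 0.143% and 0.238% of 2098. The share of intergenic regions 2-fold higher thus lay between those of the 2 other assembled classes, and the share 2-fold lower lay under both. Both shares were far above those of the RefSeq models alone in their locus. These RefSeq models were not matched to the regions by number of fragments. The parts of coverage and of bounds in this difference were therefore not tested.

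Most 2-fold differences were in weakly covered regions. Of the 626 regions with a mean of 20 to 50 fragments, 58 were 2-fold higher and 37 lower in the library labelled USP49 knockdown. Of the 115 regions with a mean of 200 or more, 4 were higher and 4 lower, and with all models over the region counted 1 was higher and 0 were lower. Over all 1188 regions the count with all models was 54 higher (4.55%) and 33 lower (2.78%), against 4.92% and 4.24% of the 4573 unspliced regions. On the bases held by models of both libraries it was 6 higher (0.505%) and 19 lower (1.6%), against 1.25% and 1.66% of the 4573, with a median log2 ratio of -0.13. That measure spreads the fragments of a model evenly, so it still depends on where each model was ended.

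**Figure D4:**
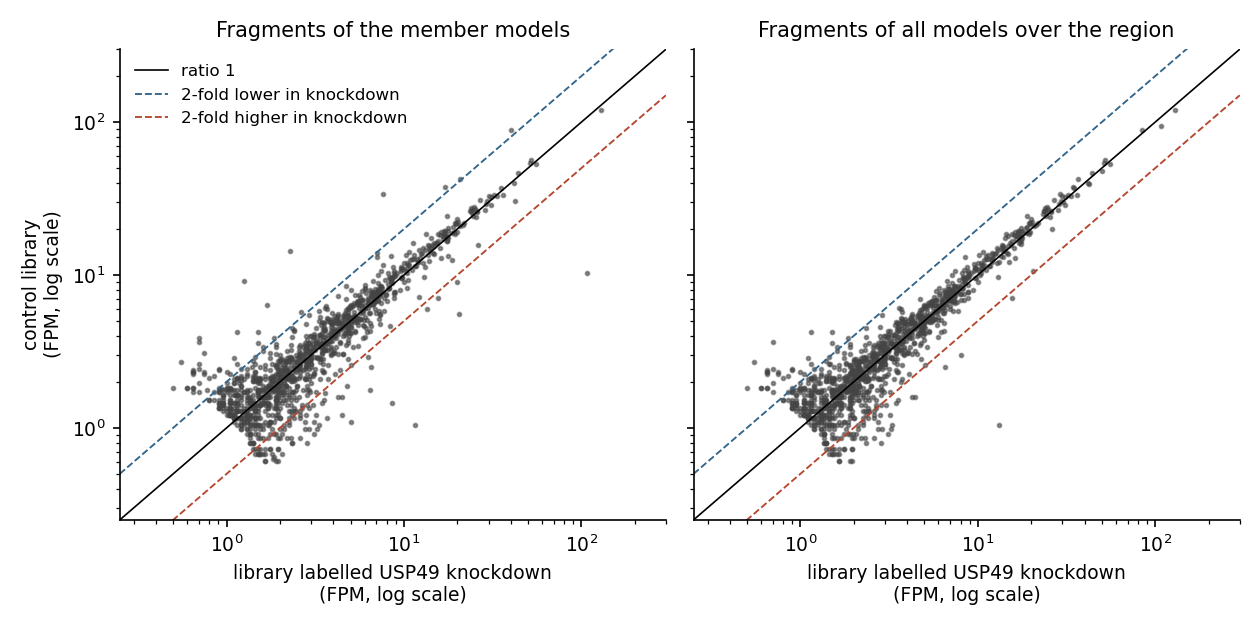
FPM of the 1188 regions, with the library labelled USP49 knockdown on the x axis and control on the y axis, both on log scales. The left panel counts the member models and the right panel all models over the region. Points below the lower dashed line are 2-fold higher in the library labelled USP49 knockdown, 73 on the left and 54 on the right, and those above the upper line 2-fold lower, 46 and 33.

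**Figure D5:**
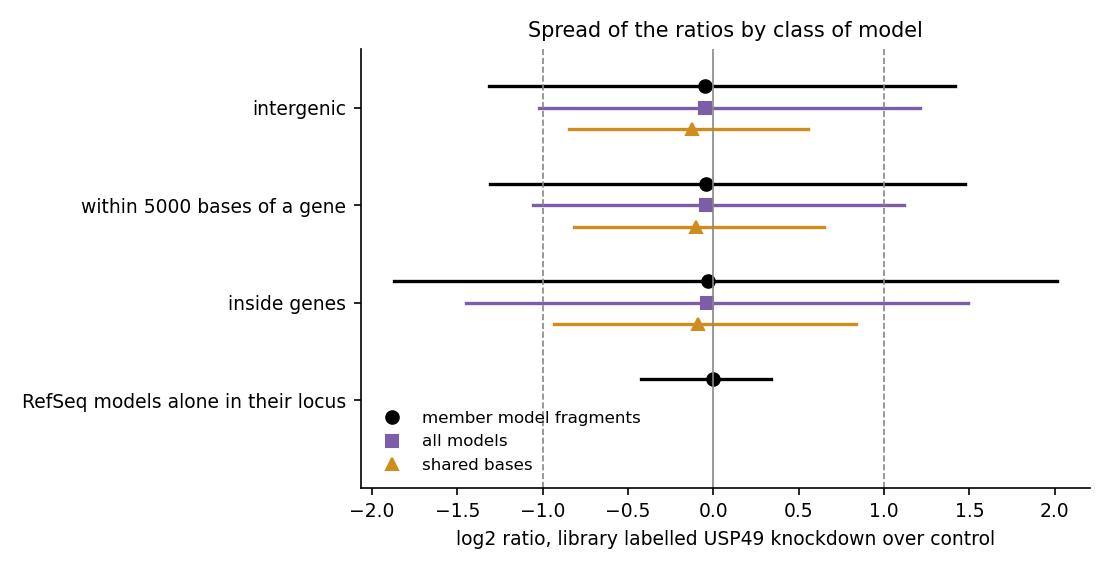
Median (symbol) and central 95% (line) of the log2 ratio of the library labelled USP49 knockdown to control, for 3 classes of unspliced regions and for RefSeq models alone in their locus. Circles count member models, squares all models and triangles shared bases. Medians lie between -0.13 and 0.00, and the intergenic line of member models runs from -1.31 to 1.42.

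The regions of highest ratio held a longer model in the library labelled USP49 knockdown and a shorter one in control. The highest lay on chromosome 11 at 3322028 to 3327595, 8138 bases beyond the 3′ end of the zinc finger gene ZNF195. It had 230.5 fragments on 5549 bases in the library labelled USP49 knockdown and 17 on 759 bases in control, a ratio of 11.1 (6.81 to 19.5). All models there gave 264 and 17 fragments, while on the shared bases the log2 ratio was 0.61. ZNF195 itself had a density of 14.0 in the library labelled USP49 knockdown and 14.6 in control.

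The other high regions came closer to 1 when all models were counted. Between FASLG, the Fas ligand gene, and TNFSF18, on chromosome 1 at 171043738 to 171051877, member models had 170 fragments in the library labelled USP49 knockdown and 24 in control, a ratio of 5.81. All models had 300.1 and 199, a ratio of 1.24 (1.03 to 1.49), while the shared bases gave a log2 ratio of -0.67, the other direction. Beyond the 5′ end of LINC00174 on chromosome 7, the member ratio of 4.56 rested on 100 and 18 fragments and became 1.32 (0.955 to 1.85), with a log2 ratio of 1.36 on the shared bases. Beyond the 3′ end of BCKDHB, a gene of branched-chain amino acid breakdown, 89 and 20 fragments gave 3.65, and all models gave 1.40 (0.987 to 2.02), with a log2 ratio of 0.54 on the shared bases. Between MIR4465 and NMBR on chromosome 6, at 141208792 to 141221913, member models had 408 fragments on 13122 bases in the library labelled USP49 knockdown and 91.5 on 3881 bases in control. There all models gave 408 and 174, a ratio of 1.92 (1.61 to 2.31), while the shared bases gave a log2 ratio of 0.11.

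In 4 of the 6 regions of lowest ratio, the library labelled USP49 knockdown had further fragments on models outside the rule. Beyond the 5′ end of NDUFAF6, a complex I assembly gene, at 96067534 to 96070674 on chromosome 8, member models had 24.9 fragments in the library labelled USP49 knockdown and 150 in control. All models had 166 and 176, a ratio of 0.774 (0.622 to 0.962) in place of 0.137, and the log2 ratio on the shared bases was -2.68. Beyond the 5′ end of RIPK2, a kinase gene of innate immunity, 45.7 against 235 fragments became 284 against 235, and the ratio 0.161 became 0.992 (0.831 to 1.18), with a log2 ratio of -1.88 on the shared bases. Beyond the 3′ end of TNIK, another kinase gene, 14 against 63 became 85.4 against 63, with a log2 ratio of -0.44 on the shared bases. Upstream of MIR31HG, the host gene of miR-31, a region at 21555365 to 21571225 on chromosome 9 had 152 fragments in 2 models in the library labelled USP49 knockdown and 553 in 1 model of 15837 bases in control. All models there had 582 and 553, a ratio of 0.864 (0.767 to 0.972), and the log2 ratio on the shared bases was -0.41.

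The remaining low regions, beyond the 3′ ends of TRMT11 and XYLB, had no other models. Near TRMT11, a tRNA methyltransferase gene, at 126443366 to 126445451 on chromosome 6, there were 14 fragments in the library labelled USP49 knockdown and 60 in control, a ratio of 0.191 (0.0988 to 0.347), on models of 799 bases in the library labelled USP49 knockdown and 2086 in control. On the shared bases it had 14 fragments in the library labelled USP49 knockdown and 23.0 in control, just past 2-fold when scaled to the depth of each library. Near XYLB, a xylulokinase gene, there were 11 and 44, a ratio of 0.205 (0.0955 to 0.404), on models of 588 bases in the library labelled USP49 knockdown and 2166 in control. On the shared bases it had 11 fragments in the library labelled USP49 knockdown and 11.9 in control, a log2 ratio of -0.40 that was not past 2-fold. TRMT11 itself had densities of 26.8 in the library labelled USP49 knockdown and 26.1 in control.

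Of the 119 regions past 2-fold on member models, 87 were also past it in the same direction with all models, and 15 on the shared bases. The count with all models includes the member fragments and equals them where no other model overlaps the region. The 87 are therefore not a separate check of the member counts. Only 3 were past 2-fold by all 3 measures, all lower in the library labelled USP49 knockdown and all with a mean under 50 fragments. They are the TRMT11 region, a region between PRM1 and RMI2 on chromosome 16 with 14 against 40 fragments, and a region beyond the 3′ end of GOSR2 on chromosome 17 with 13 against 37.0.

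The region farthest from any RefSeq span with a mean of 20 or more fragments lay on chromosome 13 at 81162025 to 81163073, 1348938 bases from SPRY2, a regulator of growth factor signalling. It had 164 fragments in the library labelled USP49 knockdown and 134 in control, a ratio of 1.00 (0.794 to 1.27). All models there had 164 and 156, a ratio of 0.863 (0.689 to 1.08), and the log2 ratio on the shared bases was -0.54. The next, at 42839236 to 42839740 on chromosome 14, lay 1203362 bases from FSCB and met the rule only in control, with 140 fragments. All models at that place had 133 fragments in the library labelled USP49 knockdown and 140 in control, a ratio of 0.779 (0.610 to 0.995).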

How the data were processed

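Per the submitters' processing notes the tools were Cufflinks, TopHat with Bowtie, bedtools, Picard and SAMtools on hg18, with versions not given in the sources used here. The deposited files are Cufflinks assemblies of each library on its own. Each transcript model in them carries a deposited FPKM and the bounds of an interval. The deposited score column of the assembler was not used. These FPKM were found not to be divided by depth. Read as a value ± 2 Poisson SD, the interval gave a fragment number that was whole within 0.02 for all 13974 unspliced assembled models alone in their locus in the library labelled USP49 knockdown and all 12793 in control. For other models the fragments came from the value and a length correction, 47 bases for RefSeq and spliced models, and for long unspliced models 252 bases in the library labelled USP49 knockdown and 246 in control. Because that correction differs by class, density over the full model length took the place of the planned depth-scaled FPKM, a change made after the data were seen.

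RefSeq spans were pooled over both files. Of 41157 accessions, 39319 were named through the GRCh38.p14 RefSeq table, which was used only for names and gene order, 712 kept the symbol given by the authors and 1126 were left unnamed. Regions were chains of overlapping models, valued in FPM. Intervals of ratios are exact Clopper-Pearson ones of the fragments of one library out of both, and PCR copies are not independent molecules. The regions named are the 8 with most fragments, the 6 highest and 6 lowest ratios, the 2 farthest from genes, the 4 strongest models per library with no counterpart, the 4 longest models and the 3 domains with most models. One region and one marker under these rules are not reported here. Members, lists and rules were chosen with earlier results of these data known. Measures on all models and on shared bases were added after the data were seen. The calculations were tested on simulated data and used Python 3.11, numpy 2.4.6, pandas 2.3.3 and scipy 1.17.1, with matplotlib 3.10.9.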

Additional observations from a re-analysis of the deposited data

How the results depend on the processing

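With 1 library per group, the limits are the depth, the bounds the assembler gave each model and the lack of replicates. No paired analysis was possible because each group has 1 library and no test was made. Causes were not tested. Members numbered 855 in the library labelled USP49 knockdown and 702 in control at more than 50000 bases from genes, and 1606 in the library labelled USP49 knockdown and 1331 in control at 1000 bases or longer. The share matched in the library labelled USP49 knockdown was 42.5% with an overlap of 50% of the longer model, 71.2% with any model, 80.3% at 20 or more fragments and 58.5% at more than 50000 bases. In control it was 49.1%, 82.2% and 85.3% under the same changes except the last, which left it within its interval. The median log2 ratio of -0.05 became -0.14 by depth-scaled FPKM, -0.083 at a mean of 10 fragments or more, -0.078 at a mean of 50 fragments or more, -0.13 on shared bases, and 0.24 without scaling, which shifts every ratio by 0.29. The 73 regions 2-fold higher became 16 by depth-scaled FPKM, 116 without scaling, 15 at a mean of 50 or more, 26 at the stricter overlap, 43 with a pseudocount of 5, 25 at more than 50000 bases and 6 on shared bases. The 46 regions 2-fold lower became 76 at a mean of 10 or more, 9 at 50 or more, 5 at more than 50000 bases and 19 on shared bases. Some of these settings also changed the number of regions tested, which was 1188 in the main setting. It was 1692 at a mean of 10 or more, 562 at 50 or more, 941 at the stricter overlap and 320 at more than 50000 bases. Counts under those settings are therefore not of the same total. By depth-scaled FPKM the split was 16 higher and 54 lower, and without scaling 116 higher and 31 lower.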

Other observations

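A cluster of 6 regions lay at 555100 to 560168 on chromosome 1, the nearest RefSeq span being a copy of the olfactory receptor gene OR4F3. Of these, 5 had models in both libraries. Their fragments came to 490 in the library labelled USP49 knockdown and 496 in control, or 24.5 and 30.3 FPM (fragments per 1000000 of the library). The mitochondrial chromosome, which can share sequence with nuclear copies of its genes, had 244707 fragments in the library labelled USP49 knockdown and 214772 in control, or 12257 and 13111 FPM, and whether fragments of the cluster come from it was not tested.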
